A study of Homo sapiens with 9 samples.

Results

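The cytosolic ribosomal protein genes encode the proteins of the large (RPL) and small (RPS) subunits of the ribosome that translates the messages of the nucleus. They were taken as all array probes whose gene name follows the human RPL and RPS naming, the acidic stalk proteins RPLP0, RPLP1 and RPLP2 included. This gave 155 probes of 83 genes out of 34623 distinct gene names on the array. RPSA, FAU and RPL36AL, which also encode ribosomal proteins, do not follow that naming and are given apart. In NT2 cells, a human teratocarcinoma line that becomes neuron-like in the presence of retinoic acid, RNA was measured on 9 one-colour arrays, 3 for each treatment. All cultures received retinoic acid for 4 days. The treated cultures also received 1 μM paraoxon, an organophosphate that does not inhibit the esterase linked to delayed neuropathy, or 5 μM mipafox, an organophosphate that does. The control cultures received neither compound, and the doses of the compounds differ. The study's methods call the replicates A, B and C technical and the sample labels call them biological, so the p-values measure the spread between these arrays, which may be technical. Control A, B and C and mipafox A lay on slide 1, and paraoxon A, B and C with mipafox B and C lay on slide 2, and paraoxon shared no slide with control.

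Messages of ribosomal proteins are among the most abundant of a growing cell, and their products are assembled in the nucleolus in matched amounts. Most of these messages begin with a 5′ terminal oligopyrimidine tract, a C followed by a run of C and T bases, known as the TOP motif, through which their translation responds to the kinase mTOR. Several of the genes have paralogs with a name ending in L or L1. Free RPL5 and RPL11 are known to bind MDM2 when ribosome assembly fails.

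The start sites of 66 of the 83 genes were read from RefSeq promoters on GRCh38.p14. The start base was taken to begin a TOP tract where it was the first of at least 5 pyrimidines and was itself a C. Only the strand with the sequence of the transcript was read. A run of pyrimidines that spanned or lay beside the listed start, as in RPL19 and RPS28, was not counted. A gene without such a start may thus still have the motif. Such a start was found for 46 of the 66 genes, in 46 of their 82 listed promoters (56.1%). The share was 4.07% of 35116 promoters of all genes, and 7.06% of 85 promoters of mitochondrial ribosomal protein genes. The windows below hold 20 bases before the start and 10 bases from it, with a tract at the start in capitals. They are shown because the paralogs differed in this feature, and RPL7L1, the gene with the lowest p against control for both compounds, is among those without it.
RPS6, chr9:19380227-19380256, minus strand: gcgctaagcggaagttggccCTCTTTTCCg
RPS27, chr1:153990742-153990771, plus strand: gcaggatttccgctttcgctCCTTTCCggc
RPS27L, chr15:63157468-63157497, minus strand: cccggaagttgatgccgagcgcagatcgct
RPL22, chr1:6199586-6199615, minus strand: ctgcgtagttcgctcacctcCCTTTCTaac
RPL22L1, chr3:170870186-170870215, minus strand: gaccgcgcggccgtagcttcCTCTCTgctc
RPL26, chr17:8383184-8383213, minus strand: accggaagcagcgtgtagttCTCTTCCCTT
RPL26L1, chr5:172958709-172958738, plus strand: caggcagtcttccaggggtcggcgaacgaa
RPL10L, chr14:46651772-46651801, minus strand: gcgcgcaggcgtagttaagagagcgcattt
RPL7L1, chr6:42879596-42879625, plus strand: cgcgccggaagtgcggcgccgtagctagga
RPL22L1 began with a tract like RPL22, whereas no tract began at the listed start in these windows of RPS27L, RPL26L1, RPL10L and RPL7L1.

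Of the 155 probes, 152 were well above background on all 9 arrays and were tested, and they covered all 83 genes. The remaining 3 were second or further probes of RPL10, RPL28 and RPL31. No spot of any probe was marked as saturated. Values are log2 of the processed intensity minus the 75th percentile of the array, so 0 is the level of that percentile. The mean level of the tested probes ran from -4.47 to 8.30 with a median of 7.01 and quartiles of 6.25 and 7.48, so most of them lay far above that percentile. Only 6 probes lay below 0, 1 each of RPL27A, RPL28, RPL37, RPL3L, RPS14 and RPS26. The stem cell markers POU5F1, SOX2 and LIN28A and the neural markers NES and TUBB3 were well above background on all 9 arrays, as were the retinoic acid targets CRABP2 and CYP26A1. In these bulk cultures fewer cells of a type and less RNA per cell cannot be told apart.

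No ribosomal protein probe was called for paraoxon against control, for mipafox against control or for paraoxon against mipafox by limma, where a call needed both a log2 difference beyond 1 and an adjusted p under 0.05. The share called among all 29134 tested probes was likewise 0%. The smallest adjusted p among the members was 0.284 for paraoxon, 0.718 for mipafox and 0.998 between the compounds. At an unadjusted p under 0.05 the members gave 1 lower and 0 higher with paraoxon, beside 6.02% lower and 7.31% higher among all tested probes. With mipafox they gave 0 in either direction, beside 4.00% lower and 2.96% higher, and between the compounds 0 in either direction, beside 1.15% lower and 2.87% higher with paraoxon. The single probe is that of RPL7L1.

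The differences of the members spread less than those of all tested probes, most of which were dimmer, with 20646 non-members below level 0. Bright probes of other genes were narrow too. The 26 probes of other named genes at levels 7 to 8 ran from -0.33 to 0.02 for paraoxon and -0.32 to 0.10 for mipafox. The narrow spread is thus not shown to be particular to the members. For paraoxon the members ran from -0.51 to 0.27 with a median of -0.15, beside 0.01 for all tested probes. For mipafox the members ran from -0.42 to 0.26 with a median of -0.10, beside 0.00. Their SD was 0.13 for paraoxon and 0.10 for mipafox, beside 0.39 and 0.31 for all probes, while the typical standard error was like that of the array at large, with a median of 0.21 against 0.20. The 95% interval of the difference lay within a 2-fold change in either direction for 150 of 152 members with paraoxon and for 151 of 152 with mipafox, beside 77.5% and 82.2% of all tested probes. The exceptions were 1 probe of RPS18 for both compounds, with an interval of -1.20 to 0.62 for paraoxon, and 1 of RPS14 for paraoxon, with -1.03 to 0.37. When the control and paraoxon arrays were fitted alone, 0.957% of all tested probes were called and 0 of the 152 members were.

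Most of the probes nevertheless leaned the same way, since 129 of 152 were lower with paraoxon and 133 of 152 lower with mipafox than in the control mean. The arrays of a treatment did not share this lean. Against the control mean, the median member stood at 0.17 on control A, -0.04 on control B and -0.15 on control C. Its place was -0.30, -0.26 and 0.16 on the paraoxon arrays in the order A, B, C, and 0.16, -0.09 and -0.36 on those of mipafox. Each treatment thus held at least 1 array with the members raised and at least 1 with them lowered, and the 3 sets of values overlapped. On paraoxon A 138 of 152 members lay below the control mean, on paraoxon C 18 did, on mipafox A 13 and on mipafox C 148. The median over all tested probes stayed between -0.09 and 0.07 on every array. Control A, paraoxon C and mipafox A, the 3 arrays with the members raised, had the lowest 75th percentiles of the processed signal, at 1000, 818 and 802. The others lay between 1129 and 1590. That percentile is subtracted from every value of its array, so the values and the percentile are linked by construction. Among the other arrays the order did not hold. Mipafox C, at 1261, had the lowest median, below paraoxon A at 1590.

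**Figure D1:**
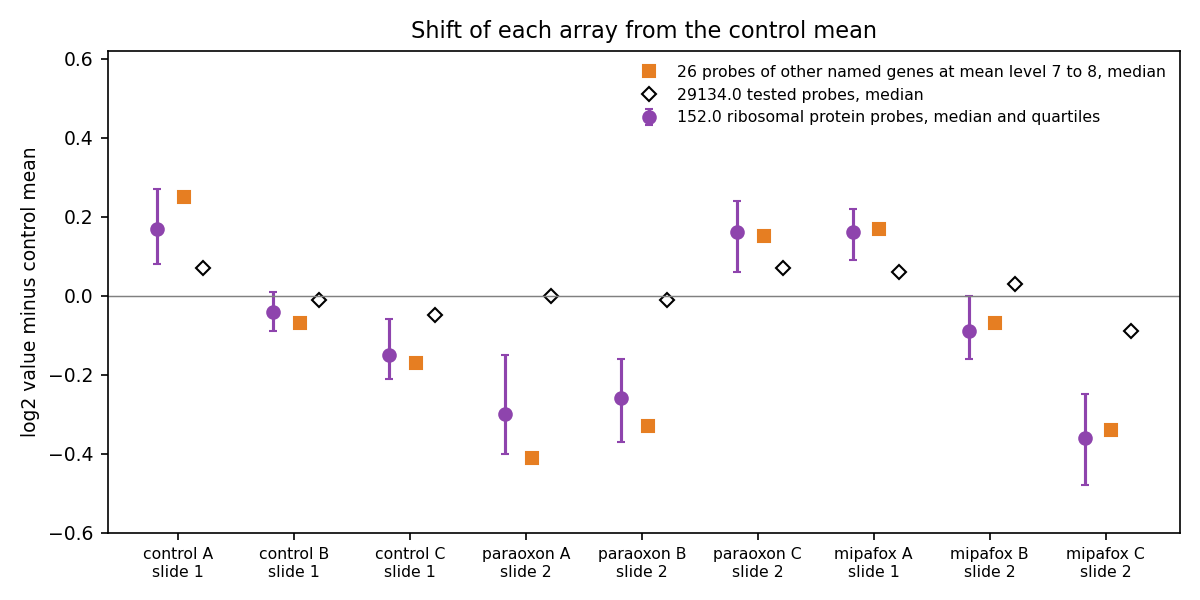
Shift of each array from the control mean in log2 units, for the 152 ribosomal protein probes (circles, median, with bars to the quartiles), 26 probes of other named genes of mean level 7 to 8 (squares, median) and all 29134 tested probes (diamonds, median). The members stood above the control mean on control A, paraoxon C and mipafox A and below it on the other 6 arrays, and the squares moved with them.

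The same shift was present in probes of other genes of the same brightness. Between levels 7 and 8 lay 74 members and 26 probes of 25 other named genes, such as EEF1A1, NPM1, GAPDH, ACTB, LDHB and TUBA1B. Some of these genes are related to the members. EEF1A1, EEF1G and HNRNPA1 are on the list of other genes with TOP mRNAs given below, and NPM1 is on that of ribosome biogenesis. The 26 probes had medians of 0.25, -0.07 and -0.17 on the control arrays in the order A, B, C, and the 74 members 0.25, -0.06 and -0.18. On the paraoxon arrays, in the same order, the other genes stood at -0.41, -0.33 and 0.15 and the members at -0.37, -0.30 and 0.18. On those of mipafox they stood at 0.17, -0.07 and -0.34, and the members at 0.17, -0.11 and -0.38. In every one of the 9 arrays the medians of both sets were on the same side of the control mean. The median difference in this band was -0.17 for the members and -0.21 for the other genes with paraoxon, and -0.12 and -0.09 with mipafox. Across the members, the correlation of the difference with the mean level was -0.39 for paraoxon and -0.27 for mipafox over 152 probes, which share the arrays and are not independent. The 17 members between levels 4 and 6 had medians of -0.03 and -0.09. What part brightness has in the lean of the members was not tested.

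**Figure D2:**
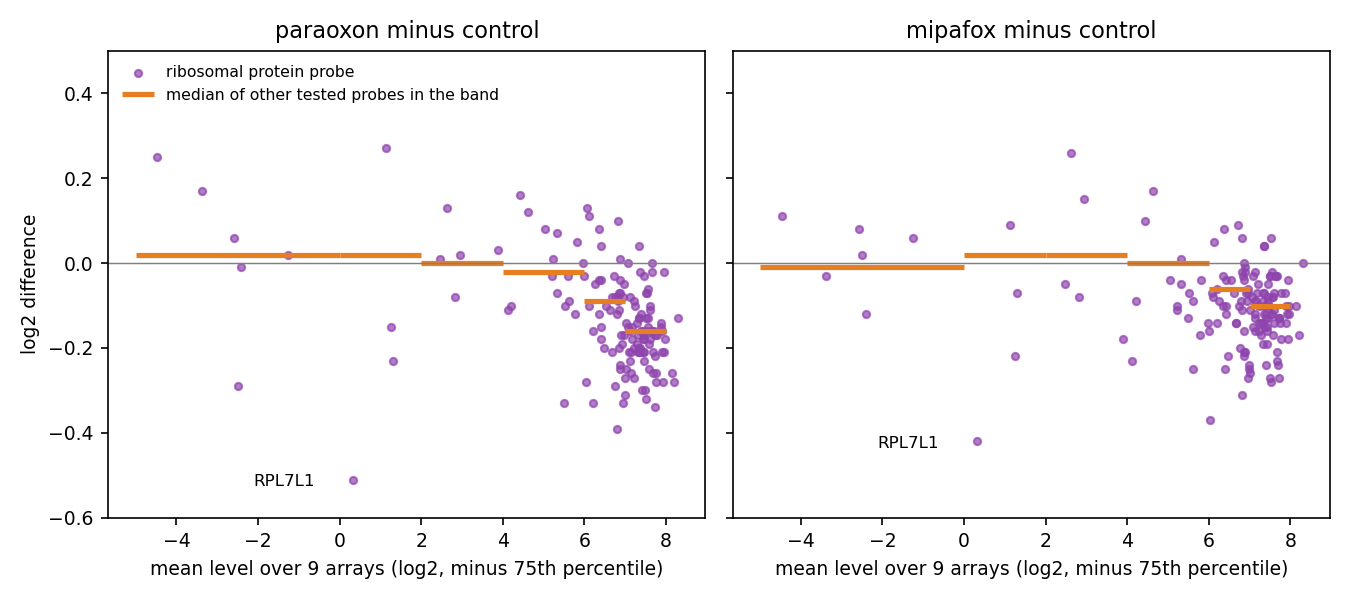
Log2 difference from control of each of the 152 tested ribosomal protein probes (points) against its mean level over 9 arrays, for paraoxon (left) and mipafox (right). Bars give the median of other tested probes in bands of level that hold at least 50 of them. The points crowd at levels 6 to 8, where the bars also lie below 0, and RPL7L1 stands lowest in both panels.

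The slides gave a further view, since mipafox lay on both. Mipafox B and C on slide 2 were lower than mipafox A on slide 1 by a median of -0.40 over the members, with 147 of 152 below 0, and by -0.08 over all tested probes. Within slide 1, mipafox A minus the mean of the control arrays had a median of 0.16 over the members and 0.06 over all tested probes, and control A stood at 0.17, as high as mipafox A. Within slide 2, the paraoxon mean minus the mean of mipafox B and C had a median of 0.10 over the members and 0.05 over all tested probes. Of the paraoxon arrays C alone, at 0.16, lay above both of these mipafox arrays, since A and B, at -0.30 and -0.26, lay between mipafox B at -0.09 and mipafox C at -0.36. With slide as a block in limma, the median difference of the members was 0.25 for paraoxon and 0.16 for mipafox, again with 0 members called. The share called over all tested probes in that fit is not given here. Both blocked values rest on the single array mipafox A, which alone links control to slide 2, so they say little of the direction of the lean.

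RPL7L1, a paralog of RPL7, was the member with the lowest log2 difference from control with either compound. Its level on replicates A, B and C was 0.58, 0.64 and 0.71 in control, 0.46, 0.22 and -0.27 with paraoxon, and 0.32, 0.23 and 0.12 with mipafox. All 6 arrays of treated cells lay below all 3 control arrays. The difference was -0.51 ± 0.19 (SE, n = 3 against 3) for paraoxon, a fold of 0.704, with an adjusted p of 0.284 in limma. For mipafox it was -0.42 ± 0.19 with an adjusted p of 0.718, and between the compounds it was -0.09 ± 0.19. Neither difference from control passed the test. On the arrays where the median member was raised RPL7L1 was not, with the lowest of all values on paraoxon C and a difference of -0.32 between mipafox A and the control mean on the same slide. Over 23 other ways of processing or leaving out arrays the difference stayed between -0.67 and -0.30 for paraoxon and between -0.47 and -0.32 for mipafox, and with array weights it had an adjusted p of 0.0408 for mipafox. In that fit 6.44% of all tested probes were lower with mipafox and 13.4% higher at an adjusted p under 0.05. The probe has 60 bases and lies at chr6:42854018-42854077 on the plus strand of hg19. It is the only probe of the gene on the array, and its first 30 bases are shown to let it be placed, with no capitals.
RPL7L1 probe: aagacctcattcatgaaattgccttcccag

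RPL7 itself, the large subunit protein, differed from control by -0.08 with paraoxon and -0.09 with mipafox. Of the 7 paralogs with names in L or L1, only RPL7L1 passed an unadjusted p under 0.05, and their median was -0.08 with paraoxon and -0.09 with mipafox. RPL22L1, which stood at 7.63, 7.58 and 7.43 in control, 7.16, 7.23 and 7.69 with paraoxon and 7.83, 7.36 and 6.96 with mipafox, differed by -0.18 (95% interval -0.71 to 0.34) and -0.16 (-0.68 to 0.36). Its partner RPL22 differed by 0.16 (-0.26 to 0.57) and 0.10 (-0.31 to 0.51). RPS27L, the paralog of RPS27, stood at 4.18, 4.40 and 4.24 in control, 4.18, 4.08 and 4.26 with paraoxon and 4.53, 4.28 and 3.73 with mipafox. Its differences were -0.10 and -0.09, and those of RPS27 -0.28 and -0.17, with standard errors of 0.20 to 0.23 for both genes. RPL26L1 (-0.08 and -0.08), RPL39L (0.01 and -0.05) and RPL10L (-0.03 and -0.11) were within 0.11 of control. RPL3L, the muscle form of RPL3, was among the dimmest members, and its interval for paraoxon was the widest of the paralogs, -0.49 to 0.82.

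**Figure D3:**
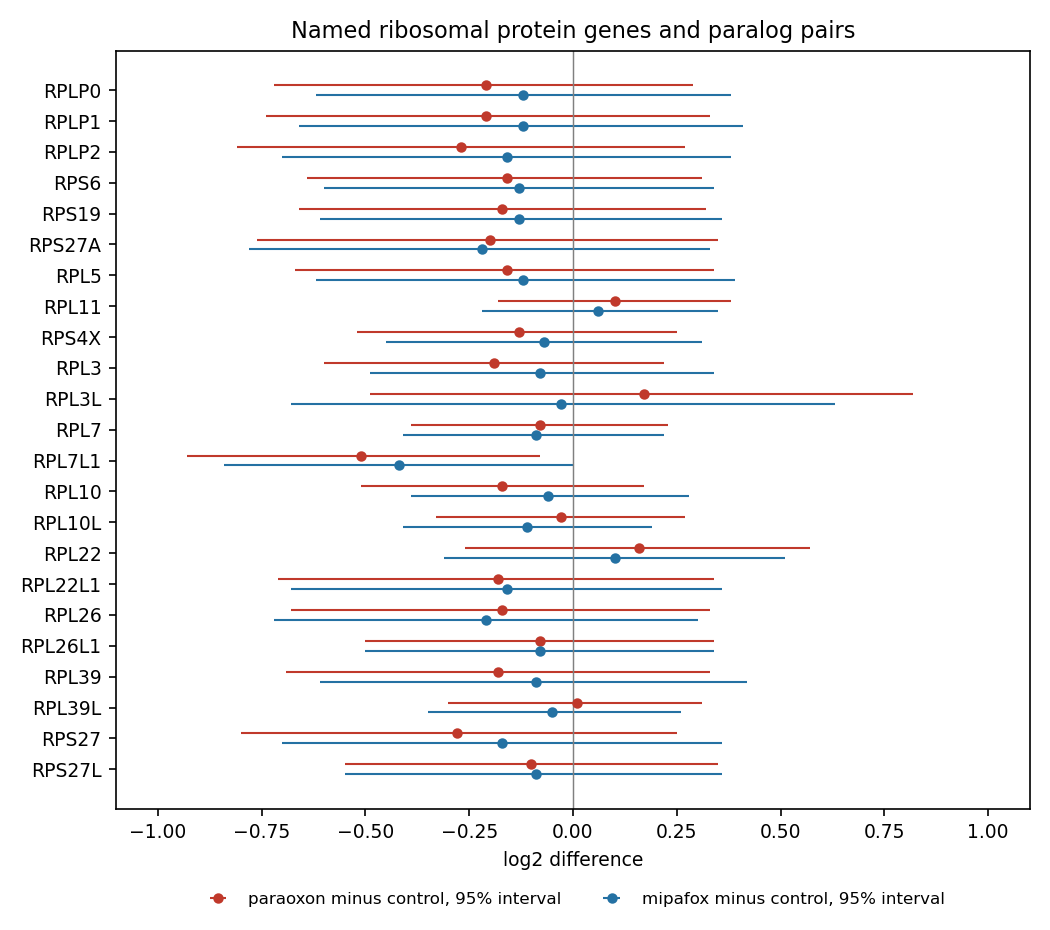
Log2 difference from control with its 95% interval for 23 named ribosomal protein genes, for paraoxon (red) and mipafox (blue), each by the brightest probe of the gene. All intervals but that of RPL7L1 with paraoxon, -0.93 to -0.08, include 0.

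The stalk proteins, which recruit the translation factors to the large subunit, gave 4 probes, all lower with either compound. RPLP0 stood at 8.34, 7.93 and 7.81 in control, 7.56, 7.69 and 8.18 with paraoxon and 8.20, 7.84 and 7.69 with mipafox. Its groups overlapped, and the differences were -0.21 (95% interval -0.72 to 0.29) and -0.12 (-0.62 to 0.38). RPLP1 differed by -0.21 and -0.12 and RPLP2 by -0.27 and -0.16. RPS6, the small subunit protein that S6 kinase phosphorylates, stood at 8.10, 7.73 and 7.59 in control, 7.41, 7.53 and 7.99 with paraoxon and 7.91, 7.68 and 7.44 with mipafox. It differed by -0.16 (-0.64 to 0.31) and -0.13 (-0.60 to 0.34). These bright genes repeated the order of the arrays given for the median member, with control A, paraoxon C and mipafox A the highest of their groups.

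RPL11 was bright too, but its control arrays were nearly equal, and it stood at 6.75, 6.77 and 6.78 in control, 6.78, 6.86 and 6.96 with paraoxon and 6.93, 6.82 and 6.73 with mipafox. Paraoxon C and mipafox A were again the highest of their groups. Paraoxon and control did not overlap, although paraoxon A and control C were equal to the decimals given, and the difference was 0.10 (95% interval -0.18 to 0.38) with an adjusted p of 0.807 in limma. RPL5, the partner of RPL11 in binding MDM2, differed by -0.16 and -0.12. RPS19, the gene most often mutated in Diamond-Blackfan anaemia, differed by -0.17 and -0.13. RPS27A, which is made as a fusion with ubiquitin, differed by -0.20 and -0.22.

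The large subunit outside the stalk and the paralogs gave 86 probes of 43 genes with a median of -0.14 for paraoxon and -0.09 for mipafox. The small subunit gave 55 probes of 30 genes with -0.15 and -0.11. With paraoxon 69 of 86 and 51 of 55 probes were lower than the control mean, and the difference between the subunits was not tested. The 9 probes of the genes on the X chromosome, RPL10, RPL36A, RPL39 and RPS4X, had a median of -0.18 and -0.07. Probes of the 46 genes with a TOP tract at a listed start had medians of -0.15 and -0.12 over 88 probes. Those of the 20 genes without one at that base had -0.13 and -0.09 over 33 probes. This split rests on the listed starts, may place genes with the motif among the 20, and was not tested.

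Groups that did not overlap were rarer among the members than over all tested probes, most of which were dimmer. No share was taken at matched brightness. Other bright genes, such as EEF1A1, GAPDH and ACTB, also overlapped between paraoxon and control. The rarity is thus not shown to be particular to the members. With paraoxon 7 of 152 members (4.61%) did not overlap with control, beside 23.4% of all tested probes, and with mipafox 2 of 152 (1.32%), beside 11.8%. The 7 were single probes of RPL7L1, RPL28, RPL6 and RPS2, which were lower, and of RPS29, RPL23A and RPL11, which were higher. The 2 with mipafox were RPL7L1 and the same RPL23A probe. RPL6, a large subunit protein, on its dimmer probe A_23_P151321 stood at 7.30, 7.35 and 7.20 in control and at 6.99, 7.09 and 6.98 with paraoxon, a difference of -0.26 ± 0.16 with an adjusted p of 0.531 in limma. The brighter RPL6 probe stood at 8.24, 7.86 and 7.68 in control and at 7.38, 7.47 and 7.93 with paraoxon, so there the groups overlapped, and its difference was -0.34 ± 0.24. The dimmer of the tested RPL31 probes, A_24_P213783, had the lowest log2 difference among the members of level 6 or more, -0.39 ± 0.25 for paraoxon, and its groups overlapped. The brighter RPL31 probe gave -0.20 ± 0.25.

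Of the 83 genes, 38 had at least 2 tested probes, and for 13 of these the probes differed in sign with paraoxon. The widest range was that of RPS29, a small subunit protein, over 4 probes. Its probe for transcript variant 2, at chr14:50044074-50044133 on the minus strand of hg19, stood at 0.89, 0.98 and 1.16 in control, 1.18, 1.32 and 1.34 with paraoxon and 1.32, 1.09 and 0.89 with mipafox. It differed from control by 0.27 ± 0.15 with paraoxon, with an adjusted p of 0.497 in limma, and by 0.09 ± 0.15 with mipafox. The 3 probes named for transcript variant 1, placed between 50050358 and 50053013 on the same chromosome, differed by -0.21, -0.03 and -0.12 with paraoxon. The first 30 bases of the variant 2 probe and of 1 variant 1 probe are shown because the probes are named for different transcripts, with no capitals. Whether the probes tell the transcripts apart was not tested.
RPS29 variant 2 probe: ctgcacagtgcagaaagtgaatagacagtg
RPS29 variant 1 probe: gcgaaggatatcggtttcattaagttggac
The RPL28 probe for transcript variant 5 was lower with paraoxon by -0.29 ± 0.15, with an adjusted p of 0.469 in limma, and stood at 0.02 with mipafox. RPL23A gave 0.13 and 0.26 on its dimmest probe and -0.23 and -0.09 on a bright one. RPL21, with 9 probes, ranged from -0.31 to 0.08, and 1 of its probes lies on chromosome 10, apart from the gene on chromosome 13. Ribosomal protein genes have many processed pseudogenes, and how far the signal of a probe includes them was not tested, so single probes are uncertain to that extent.

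**Figure D4:**
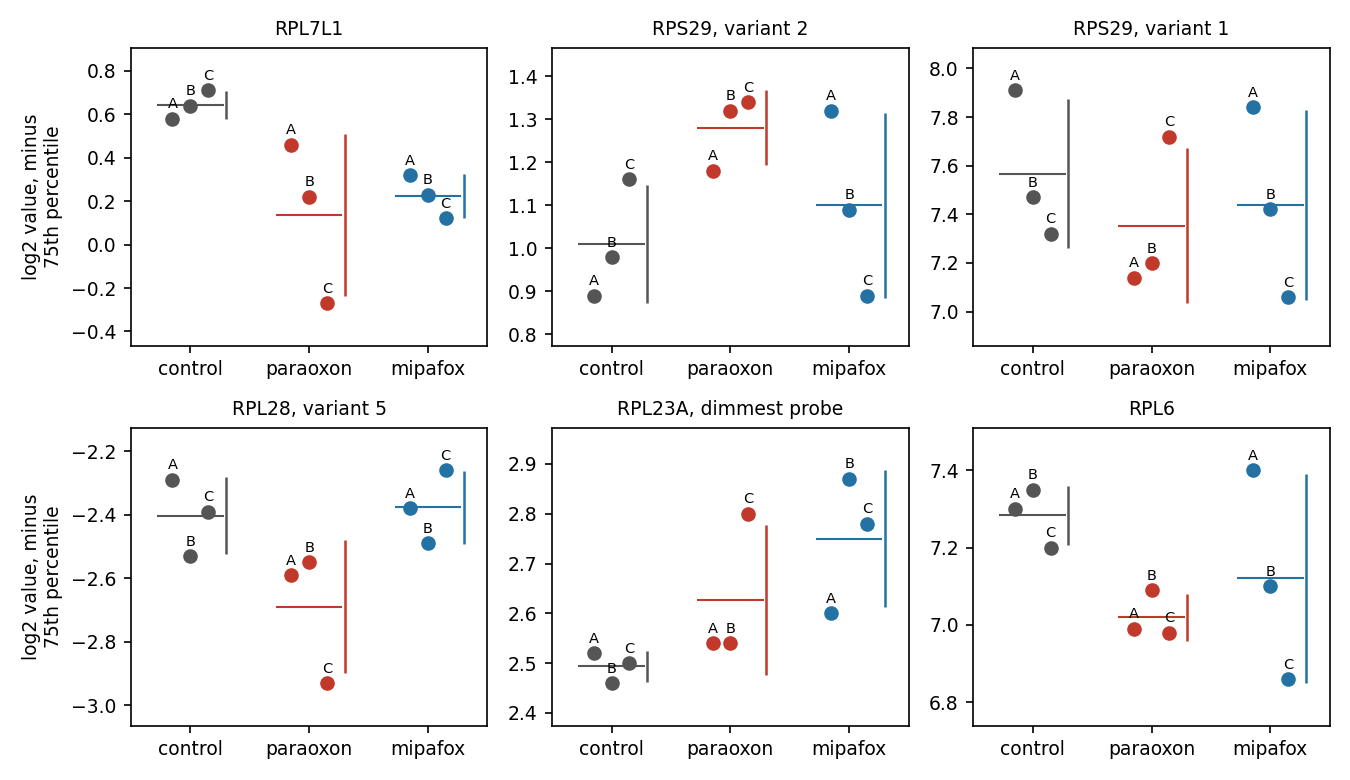
Log2 value, relative to the 75th percentile of the array, of 6 probes on each array, with letters for replicates, horizontal lines for the mean and vertical lines for 1 SD either side (n = 3). RPL7L1 lay below control on all treated arrays, RPS29 variant 2 and variant 1 had differences of opposite sign with paraoxon, and the remaining probes differed by 0.29 or less from control.

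RPSA, a small subunit protein that also serves as a laminin receptor, gave differences of -0.27, -0.05, -0.28 and -0.02 with paraoxon on its 4 probes. FAU, made as a fusion with a ubiquitin-like protein, gave -0.07, and RPL36AL, a copy of RPL36A, gave -0.11. With mipafox FAU gave -0.03 and RPL36AL -0.05. None of these probes passed an unadjusted p under 0.05 with either compound. Mitochondrial ribosomal protein genes, which serve the ribosome of the mitochondrion, gave 90 tested probes of 76 genes. With paraoxon 3 were lower and 1 higher at that limit, beside 6.02% and 7.31% of all tested probes, and the median was -0.05. The 3 lowest by p were MRPS18B (-0.61), MRPL38 (-0.57) and MRPL12 (-0.44), with adjusted p of 0.285, 0.340 and 0.344 in limma. With mipafox 0 were lower and 1 higher, beside 4.00% and 2.96% of all tested probes, with a median of -0.04.

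Ribosome biogenesis factors gave 85 probes of 69 genes, with medians of -0.03 for paraoxon and 0.00 for mipafox. At an unadjusted p under 0.05, 3 were lower and 1 higher with paraoxon, beside 6.02% and 7.31% of all tested probes. With mipafox there was 1 of each, beside 4.00% and 2.96%. DDX10, an RNA helicase, was at -4.17, -4.18 and -4.07 in control, -2.99, -3.38 and -3.30 with paraoxon and -4.10, -3.10 and -3.37 with mipafox. It had a difference of 0.92 ± 0.24 and an adjusted p of 0.145 in limma. The DDX10 values followed the slide. Mipafox A on slide 1 differed from the control mean by 0.03. On slide 2, the paraoxon mean differed from that of mipafox B and C by 0.02. Slide and paraoxon cannot be told apart for DDX10. NOP56, a core protein of box C/D small nucleolar particles, was at 2.25, 2.24 and 2.39 in control and at 1.81, 1.90 and 1.27 with paraoxon, a difference of -0.63 ± 0.18 with an adjusted p of 0.166. The groups did not overlap for either gene with paraoxon, but neither passed the test. TCOF1, the treacle protein of ribosomal gene transcription, gave -0.75 with an adjusted p of 0.288.

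Other genes with TOP mRNAs, most of them translation factors, gave 29 probes of 20 genes, with medians of -0.10 and -0.06. None passed an unadjusted p under 0.05 for paraoxon, beside 6.02% lower and 7.31% higher of all tested probes. For mipafox 1 was lower, beside 4.00%. The 1 probe was of VIM, which encodes the intermediate filament protein vimentin and no translation factor, at -0.36 with an adjusted p of 0.651 in limma. A list of genes of the mTOR axis, the LARP proteins and the MYC family gave 37 probes of 24 genes, with 5 lower and 1 higher for paraoxon, beside 6.02% and 7.31% of all tested probes, and 4 lower and 2 higher for mipafox, beside 4.00% and 2.96%. The medians were -0.07 and 0.00. MAX, the partner of MYC and not of the mTOR axis itself, was among the lower probes, at -0.45 and -0.40 with adjusted p of 0.220 and 0.615 in limma, and so was LARP4, at -0.52 and -0.44 with adjusted p of 0.217 and 0.648. RPS6KB1, which encodes S6 kinase 1, differed by -0.63 ± 0.18 with paraoxon and -0.53 with mipafox, with adjusted p of 0.170 and 0.576 in limma. The MAX, LARP4 and RPS6KB1 probes were picked for a small p and were dim, at mean levels of -2.88, -1.75 and -3.91. No probe of these lists had an adjusted p under 0.05 in either comparison.

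The lean of the ribosomal protein probes depended on the processing. Under quantile normalization their median difference was -0.01 for paraoxon and -0.02 for mipafox, and in the authors' log2 values it was 0.04 and 0.02. Array weights gave paraoxon C, mipafox A, mipafox C and control A the lowest weights. With them the median for paraoxon was -0.20. There 37 members (24.3%) were lower at an unadjusted p under 0.05, beside 11.6% of all tested probes. In that fit 1 member, an RPS23 probe at -0.41, had an adjusted p under 0.05, at 0.0253, beside 4.45% lower among all tested probes. With mipafox the same RPL23A probe as above was higher in that limma fit, at 0.36 with an adjusted p of 0.0231. It was beside 13.4% higher among all tested probes at an adjusted p under 0.05. No member had a lower adjusted p in any fit. At an unadjusted p under 0.05 for paraoxon, the authors' values gave 2 members lower and 11 higher, beside 7.15% and 9.39% of all tested probes, and normexp 7 lower and 3 higher, beside 8.13% and 8.06%. Without paraoxon C the median was -0.28, and without mipafox C the median for mipafox was 0.03.

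**Figure D5:**
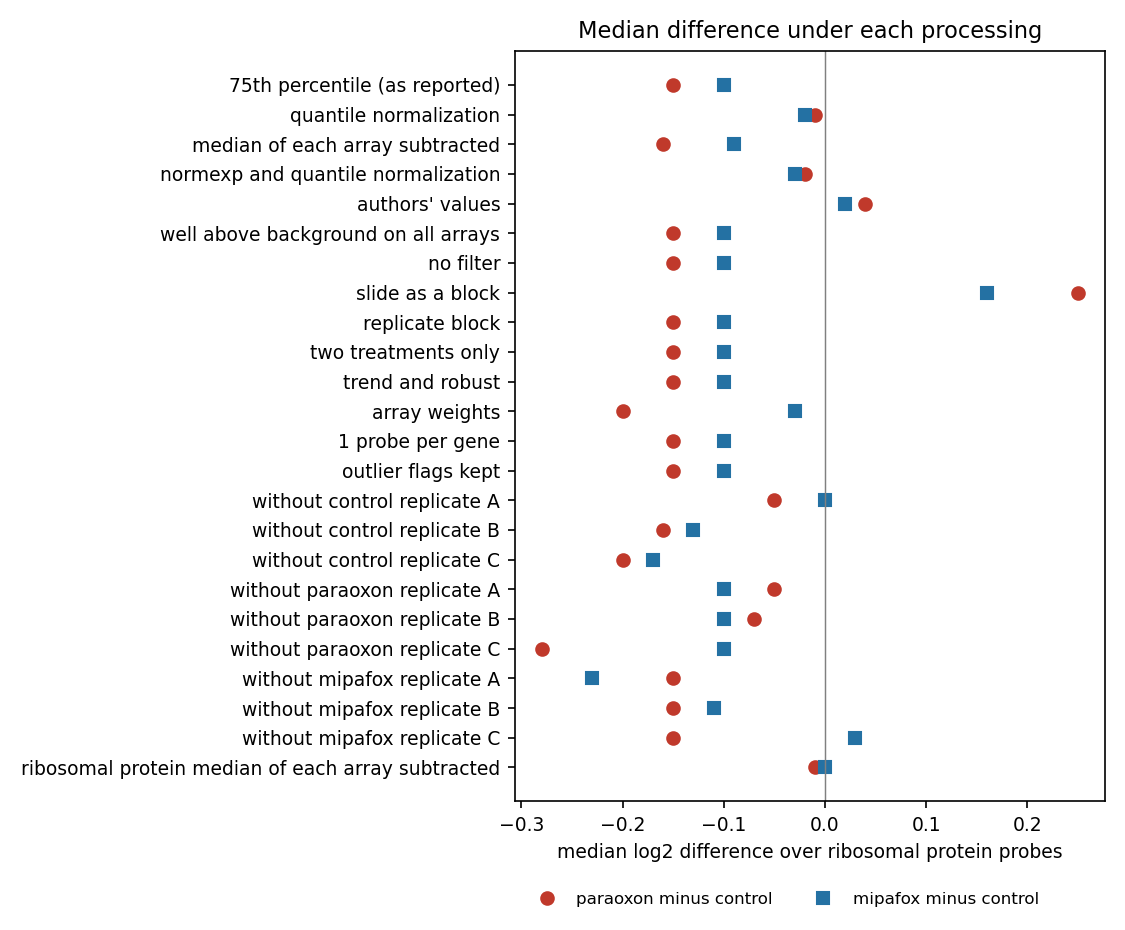
Median log2 difference from control over the ribosomal protein probes under each processing, for paraoxon (circles) and mipafox (squares), with the reported values at the top. Values ran from -0.28 without paraoxon C to 0.25 with slide as a block, both for paraoxon.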

How the data were processed

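RNA of NT2 cells was labelled and hybridized to 9 one-colour Agilent arrays, 3 per treatment, and the authors deposited the output of Agilent Feature Extraction 10.5.1.1, in which the processed signal is an intensity on a linear scale. They also deposited a table of log2 values, made with the Agi4x44PreProcess package, whose background correction and scaling are not given in the sources used here. These log2 values served as an alternative. For the values given here, log2 of the processed signal was computed per spot, less that of the 75th percentile over the non-control spots of the array. Spots marked as outliers were then removed and the rest averaged per probe. Probes well above background made up 65.7% to 73.6% of an array. Precision is limited by the number of arrays.

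A probe entered the test if it was well above background throughout 1 treatment or more and had 2 or more values in each. The resulting 29134 probes were fitted by limma 3.58.1 (R 4.3.3) to the 9 arrays together, each treatment having its own mean, and p-values were adjusted by Benjamini-Hochberg over all of them. Calls were made at a log2 difference beyond 1 together with an adjusted p under 0.05. The fit was also run on simulated arrays without slide effects, with shifts larger than any member difference. That run thus does not bear on the members. Named genes were RPLP0, RPLP1, RPLP2, RPS6, RPL5, RPL11, RPS27L, RPS19, RPS27A, RPS4X, RPL10, 7 paralog pairs, the 8 members with the lowest p in each comparison, the 3 genes whose probes differ most, and up to 3 probes of each other list. A member gene with several probes was described by its brightest unless another is named. Probes named from the other lists, apart from RPSA, FAU and RPL36AL, were those with the smallest unadjusted p. Other probes of the same gene may differ. The members and lists were chosen with earlier results of these data known. The bands of brightness and the fit with the ribosomal protein median subtracted were chosen after seeing the data. Probe positions are those of the files, on hg19, and start sites are from RefSeq on GRCh38.p14. Some items of the gene lists are not reported here. Replicate letters did not pair the arrays. Figures were drawn with matplotlib 3.10.9.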

Additional observations from a re-analysis of the deposited data

How the results depend on the processing

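No ribosomal protein probe was called in any of the 3 comparisons under any of 22 listed alternatives or the added one. With the control and paraoxon arrays alone, 0.957% of all tested probes were called for paraoxon. The shares called over all tested probes are not given here for the other alternatives, so there the 0 is no result about the members. No member spot was saturated, so leaving saturated probes out changed nothing. The median difference moved by more than the spread between arrays only with slide as a block, to 0.25 for paraoxon and 0.16 for mipafox. Leaving out 1 array at a time gave medians of -0.28 to -0.05 for paraoxon, -0.23 to 0.03 for mipafox and -0.18 to 0.10 between the compounds. The number of members at an unadjusted p under 0.05, which was 1, 0 and 0 for paraoxon, mipafox and between them, was 37, 8 and 5 with array weights, 13, 6 and 2 in the authors' values, 10, 6 and 2 with normexp, and 3, 1 and 1 with slide as a block. For paraoxon the 37 were all lower, 24.3% of the members beside 11.6% of all tested probes. The 13 were 2 lower and 11 higher, beside 7.15% and 9.39%. The 10 were 7 lower and 3 higher, beside 8.13% and 8.06%, and the 3 were all higher. Shares over all tested probes are not given here for the other counts, so those counts are no result about the members. For mipafox the number was 1 with quantile normalization, the trend and robust fit, 2 treatments only, and probes well above background on all arrays. It ran from 0 to 2, 0 to 3 and 0 to 2 when single arrays were left out. For paraoxon it was 0 with the ribosomal protein median of each array subtracted. With the replicate block it was 1, 0 and 0, so pairing by letter, which the data do not bear out, changed no call, and the medians were -0.15, -0.10 and -0.04. Of 102 differences of named probes, 86 changed sign under at least 1 alternative, counted on rounded values. The RPL21 probe A_32_P234738, at 0.0 for paraoxon, was not counted, although its values ran from -0.08 to 0.17. What caused these changes of sign was not tested. With 3 arrays per treatment, of which paraoxon and control share no slide, differences of members smaller than about 0.47 on the log2 scale lie within the typical 95% interval.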
